A study of Vitis vinifera with 6 samples.

Results

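In berries of Black Magic, an early black table grape (Vitis vinifera), 95 genes were at least 3 times as abundant in plots given a corn gluten-derived protein hydrolysate (GDPH) as in plots given urea. They were found among 16030 tested genes of 35134 in the annotation, so they make up 0.593% of the tested genes. A gene was included when its mean under GDPH was at least 5 CPM (counts relative to the library total, corrected with TMM factors) and at least 3 times its mean under urea, when its lowest GDPH value lay above its highest urea value, and when it averaged under 1000 CPM over the 6 libraries. In addition, 5 identifiers were left out by name, 1 of which met these conditions. The genes were chosen by these CPM values under urea and GDPH, so their differences between the treatments are described here and not tested.

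Each treatment had 3 sequenced plots of 7 vines, numbered replicates 1 to 3. Both products were applied to the soil by irrigation at veraison, both carried 1.25 kg of nitrogen per hectare, and a pool of deseeded berries was taken per plot 14 days later. The vines of both groups were grafted on 1103P and grown under plastic film, and all plots stood in one vineyard. No library came from vines without added nitrogen, so every statement below is relative to urea. The libraries held between 15092687 and 18763377 estimated counts, so that a gene at 0 may still have reached 3 counts, or 0.160 to 0.199 CPM, as far as counting error goes. In berry pools, more cells of a type and more RNA per cell cannot be told apart.

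Veraison is the turn from berry growth to ripening, when the fruit softens, loads sugar, loses acid and, in black cultivars, colours the skin. Protein hydrolysates are mixtures of peptides and free amino acids that are used as biostimulants, while urea supplies nitrogen as a small molecule that soil microbes and plants break down to ammonium. The grapevine genome holds many gene families whose copies lie side by side, and reads from near-identical copies cannot always be assigned to a single gene. The files give identifiers without gene names. None of them (0) matched the reference gene table, so functions, the sequences of the genes and marker genes of the berry are not reported here. The first digits of an identifier name its chromosome, or 0 for unplaced sequence, and the last digits are a serial number. No genome coordinates were used.

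The 95 genes were mostly weak under urea and reached moderate levels under GDPH. Their mean level ran from 0.261 to 240.8 CPM under urea, with a median over genes of 4.02 CPM, and from 5.08 to 1045 CPM under GDPH, with a median of 18.4 CPM. Under urea 53 of them averaged under 5 CPM, and under GDPH 77 averaged under 100 CPM. The ratio of means ran from 3.02 to 27.6, with a median of 4.26, against 0.997 over all tested genes. It was at least 4 for 51 genes, at least 8 for 17 and at least 10 for 9. The lowest GDPH plot was at least 2 times the highest urea plot for 67 genes and at least 3 times for 26. Summed over the 95 genes, their share of all counts was 0.208% ± 0.0246 with urea and 0.816% ± 0.219 with GDPH (SD, n = 3), from 0.663% in GDPH replicate 3 to 1.07% in GDPH replicate 1.

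**Figure D1:**
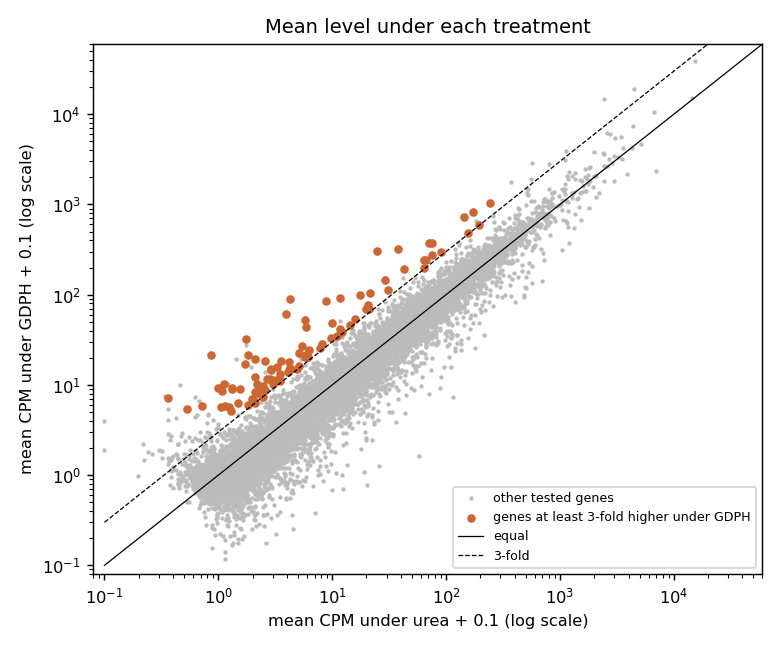
Mean CPM of each tested gene under urea (x axis) and GDPH (y axis), both with 0.1 added and on log scales. The 95 selected genes (orange) lie on or above the dashed 3-fold line, between 5.08 and 1045 CPM under GDPH, because the rule placed them there.

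The same thresholds with the treatments exchanged found 176 genes that were at least 3 times higher under urea, so the rule found fewer genes higher than lower. The size of this imbalance depended on the scaling. The median log2 ratio of all tested genes was -0.01 with TMM. With library totals alone, where it was -0.17, 74 genes met the rule for higher and 257 for lower. On the deposited TPM scale, where it was -0.29, the numbers were 64 and 340. The ratios of the 95 genes then had medians of 3.82 with totals and 3.52 on the TPM scale, and the smallest were 2.69 and 2.47.

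Across all genes, the edgeR quasi-likelihood test called 6.45% of the tested genes higher under GDPH (Benjamini-Hochberg adjusted p under 0.05, n = 3 against 3), and 76 of the 95 genes were among them. Every GDPH value lay above every urea value in 18.5% of the tested genes, and in all 95 by the rule. With the replicate number as a block, 83 of the 95 were called, beside 9.81% of the tested genes. These counts come from the contrast that chose the genes and are no independent evidence. By the medians, the 19 genes without a call differed from the called ones mainly in the spread among urea plots. The median SD of log2 CPM among urea plots was 1.23 for these 19 and 0.329 for the 76 called genes, against 0.416 and 0.359 among GDPH plots. Among the 19 were 6 short genes of chromosome 12, described below, whose urea plots disagreed. In some of the 19, such as Vitvi05g00510 and Vitvi05g00235, the GDPH plots spread widely too.

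The rule was also applied to 4 libraries at a time and the genes read in the pair of plots it had not used. When the rule was applied without both libraries numbered 1, it chose 92 genes. In the left-out pair of plots, GDPH was above urea for 86 of these 92 (93.5%, against 48.7% of the genes tested in that run) and at least 3 times urea for 63 (68.5%, against 2.05%). Without the libraries numbered 2, 122 genes were chosen, of which 120 had a count in the left-out pair. GDPH was above urea for 119 of these 120 (99.2%, against 50.4%) and at least 3 times urea for 71 (59.2%, against 1.67%). Without the libraries numbered 3, 104 genes were chosen, and GDPH was above urea for 103 of them (99.0%, against 49.4%) and at least 3 times urea for 71 (68.3%, against 2.57%). The median ratio in the left-out pair was 4.30, 3.54 and 4.07, beside 4.30, 5.22 and 4.25 in the pairs that chose the genes. In the left-out plots the direction thus held for 93.5 to 99.2% of the chosen genes and the 3-fold size for 59.2 to 68.5%. Of the genes chosen in this way 73, 91 and 82 were among the 95. The plots left out of 1 run helped to choose genes in the other runs, so the 3 results are not independent. The percentages count genes, which are not replicates of a treatment. The filter on low counts used only the 4 libraries that chose the genes, while the scaling factors of the left-out libraries came from all 6 libraries.

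The 10 highest ratios ran from 9.998 to 27.6, and they differed in how evenly the plots shared them. Vitvi08g01547, on chromosome 8, was at 5.66, 3.80 and 2.94 CPM in urea replicates 1 to 3 and at 92.7, 86.8 and 87.5 CPM in the GDPH replicates. The means of 4.13 ± 1.39 and 89.0 ± 3.21 CPM (SD, n = 3) had a ratio of 21.5. Its 3 GDPH plots stood close together, and the lowest of them was 15.3 times the highest urea plot, the widest gap of the 95 genes. The next widest gap, 11.3 times, belonged to Vitvi14g02948 on chromosome 14. It was at 2.31, 1.43 and 1.21 CPM under urea and at 36.5, 34.0 and 26.2 CPM under GDPH. Vitvi16g00752 was at 2.68, 0.997 and 1.21 CPM under urea and at 19.4, 14.4 and 17.5 CPM under GDPH. Vitvi03g04157 was at 0.365, 0.686 and 0.231 CPM under urea and at 4.24, 5.25 and 6.53 CPM under GDPH. In both, the GDPH plots were again of similar height, and both held fractional counts, which the counting program RSEM gives where it divides reads among genes.

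The size of the highest ratio of all depended on single plots. Vitvi14g01489, on chromosome 14, was at 1.40, 0.623 and 0.289 CPM under urea and at 43.0, 11.8 and 9.12 CPM under GDPH. Its ratio was 27.6 with all libraries, 13.6 without GDPH replicate 1 and 46.7 without urea replicate 1. The lowest GDPH plot of this gene was still 6.52 times its highest urea plot. Vitvi05g00510, on chromosome 5, was at 0.669, 0 and 0.115 CPM under urea and at 17.2, 0.685 and 3.38 CPM under GDPH. GDPH replicate 2 stood barely above urea replicate 1, and the ratio of 27.2 became 7.77 without GDPH replicate 1 and 123.0 without urea replicate 1. Vitvi05g00235, also on chromosome 5, was at 3.59, 0.686 and 0.866 CPM under urea and at 50.4, 3.996 and 10.4 CPM under GDPH. In this gene too the replicates numbered 1 were the highest of their treatment. Its ratio of 12.6 became 4.19 without GDPH replicate 1 and 27.8 without urea replicate 1.

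**Figure D2:**
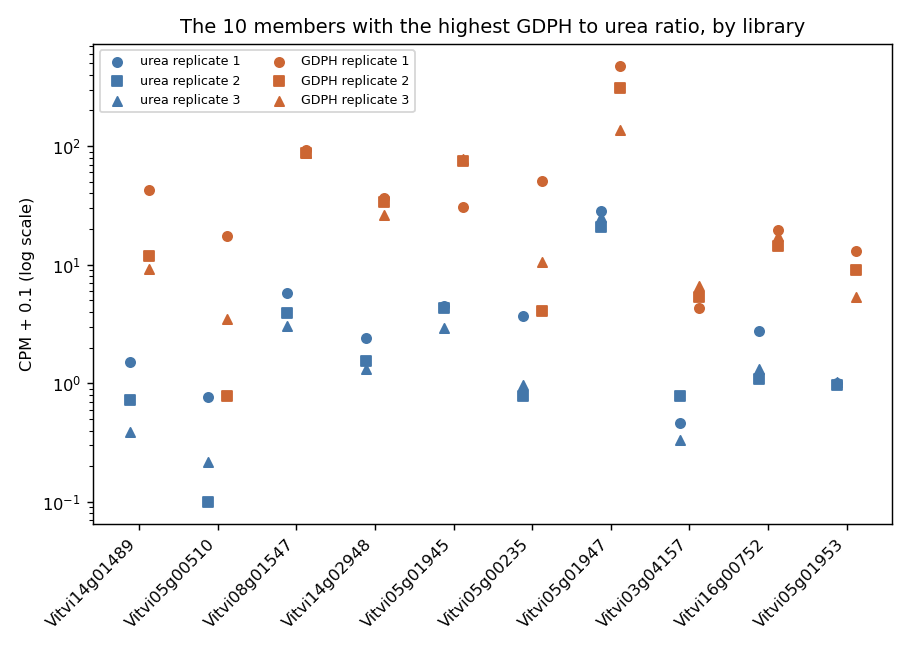
CPM with 0.1 added (log scale) in each of the 6 libraries for the 10 genes with the highest ratio of mean GDPH to mean urea CPM, in order of the ratio. Urea plots are blue and GDPH plots orange, with a marker for each replicate number. Vitvi08g01547 has 3 close GDPH values, whereas Vitvi05g00510 runs from 0.685 to 17.2 CPM under GDPH.

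GDPH replicate 1 was the highest GDPH plot for most of the 95 genes. It was highest for 63 genes (66.3%), GDPH replicate 3 for 23 and GDPH replicate 2 for 9. Over all tested genes the shares were 40.1% for replicate 1, 32.3% for replicate 3 and 27.5% for replicate 2. The median ratio to the urea mean was 5.49 in GDPH replicate 1, 3.74 in replicate 2 and 3.80 in replicate 3. GDPH replicate 1 was at least 2 times the next GDPH plot for 12 genes, and neither other plot was so for any gene (0). The genes lower by the mirrored rule had their lowest median ratio to the urea mean in the same plot, at 0.158, against 0.273 and 0.325 in replicates 2 and 3. Without GDPH replicate 1 the rule found 77 genes, 74 of them among the 95. Without GDPH replicate 2 it found 115, and without GDPH replicate 3 it found 105. What set GDPH replicate 1 apart was not tested.

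**Figure D3:**
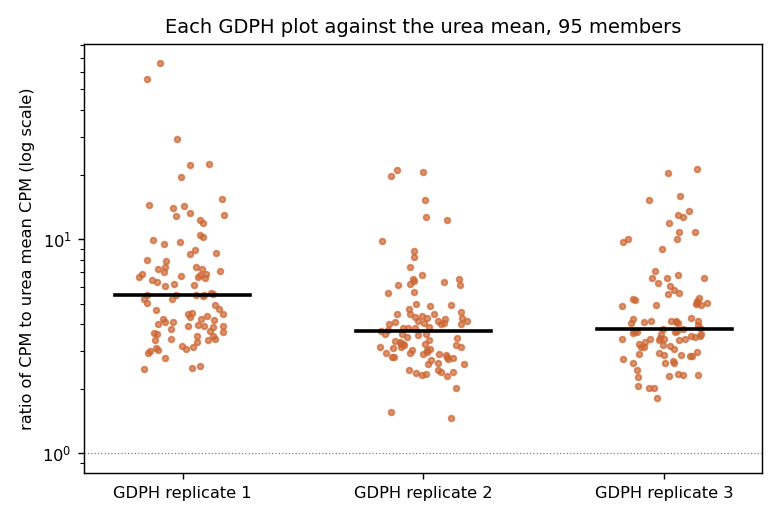
Ratio of the CPM in each GDPH plot to the mean urea CPM (log scale) for the 95 genes, with 1 point per gene and plot and a bar at the median. The medians are 5.49, 3.74 and 3.80, and the dotted line marks a ratio of 1.

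The 10 genes with the most counts under GDPH held 53.9 to 65.3% of the summed CPM of all 95 in the GDPH libraries. Per length, Vitvi15g00643 on chromosome 15 had the highest level, with 339 ± 58.3 TPM under urea and 1203 ± 531 TPM under GDPH (SD, n = 3). In CPM it was at 292, 218 and 212 under urea and at 1580, 922 and 634 under GDPH, the highest value again in GDPH replicate 1. Vitvi02g04092 on chromosome 2 followed with 400.1 ± 148 TPM under urea and 1018 ± 213 TPM under GDPH (SD, n = 3). Under GDPH these 2 genes differed by less than the SD of the first. Vitvi08g01701 reached 815 ± 342 TPM, Vitvi10g00030 769 ± 308 TPM and Vitvi07g00301 646 ± 81.1 TPM under GDPH (SD, n = 3). The differences among these 3 were smaller than the SDs of the first 2.

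Several of these abundant genes shared GDPH replicate 1 as the highest plot by a wide margin. Vitvi10g00030 was at 149, 118 and 164 CPM under urea and at 1058, 643 and 462 CPM in GDPH replicates 1, 2 and 3. Vitvi08g01701 was at 260, 142 and 112 CPM under urea and at 1246, 707 and 544 CPM under GDPH. Vitvi01g00672 was at 42.1, 38.5 and 31.7 CPM under urea and at 575, 244 and 154 CPM under GDPH. The ratio of Vitvi01g00672 moved from 8.67 to 5.32 without GDPH replicate 1.

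Other abundant genes were more even. Vitvi05g00107 was at 70.7, 80.5 and 72.2 CPM under urea and at 469, 363 and 283 CPM under GDPH, so that its urea plots were nearly equal. Vitvi05g00857 was at 89.2, 108 and 72.0 CPM under urea and at 316, 260 and 306 CPM under GDPH. Vitvi02g01406 had the opposite pattern, with an uneven urea group of 113, 79.8 and 19.5 CPM and GDPH values of 489, 349 and 292 CPM. Its urea replicate 3 was far below the other urea plots.

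Some genes were close to constant among GDPH plots. Vitvi03g01411 was at 4.20, 3.05 and 2.02 CPM under urea and at 11.1, 11.1 and 11.2 CPM under GDPH. Vitvi08g00888 was at 3.04, 2.62 and 2.54 CPM under urea and at 10.6, 12.2 and 11.6 CPM under GDPH. Vitvi13g01114, whose effective length was 3.02 times that of the median tested gene, was at 12.3, 9.16 and 13.3 CPM under urea and at 42.2, 38.7 and 43.1 CPM under GDPH. Vitvi17g00955 was at 2.86, 3.05 and 4.16 CPM under urea and at 10.03, 11.7 and 11.9 CPM under GDPH. In these 4 genes the GDPH plots stood close together and well above the urea plots, which were less even in Vitvi03g01411 than in the others. The largest spreads lay at the other end. Vitvi07g02362 was at 0.973, 1.06 and 1.04 CPM under urea and at 14.3, 2.40 and 13.9 CPM under GDPH, with replicate 2 far below the other GDPH plots. Vitvi09g00041 was at 4.01, 4.05 and 0.404 CPM under urea and at 34.5, 4.11 and 5.69 CPM under GDPH. Its GDPH replicate 2 was only just above urea replicate 2, and its ratio of 5.23 became 1.74 without GDPH replicate 1.

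Among plots of a treatment, the 95 genes had larger median spreads than tested genes as a whole. The median SD of log2 CPM was 0.378 among GDPH plots and 0.384 among urea plots, against 0.172 and 0.177 over all tested genes. Among tested genes with at least 5 CPM under GDPH and under 1000 CPM on average it was 0.140 and 0.146. That set was not matched on the urea level, and 53 of the 95 genes averaged under 5 CPM under urea. The urea spreads are thus compared at unlike levels. The genes of the mirrored rule had medians of 0.505 among GDPH plots, where they are low, and 0.315 among urea plots.

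Transcript length and the sharing of reads, which the rule did not use, also had other values in the 95 genes than in the rest. Their effective transcript length, taken from the ratio of deposited counts to TPM, had a median of 0.682 times that of the median tested gene, and 72 of 95 (75.8%) were shorter than that gene. For the 176 genes of the mirrored rule the median was 0.870, and 57.4% were shorter. Fractional counts, which arise where reads are shared between genes or copies, were present in 37 of the 95 genes (38.9%). They were present in 24 of the 176 mirrored genes (13.6%), in 12.2% of all tested genes and in 11.1% of all genes that edgeR called higher. Among tested genes with at least 5 CPM under GDPH and under 1000 CPM on average, the share was 9.51% and the median length 1.07. The 37 genes with fractional counts had a median ratio of 5.23, and the 58 with whole counts 3.81, in a list that was chosen by this ratio. Over all tested genes the median ratio was 0.984 with fractional counts and 0.997 with whole counts. For the 37 genes, part of a count can belong to a similar copy, so their values are uncertain as values of a single gene. These are descriptions of the lists, with no test.

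**Figure D4:**
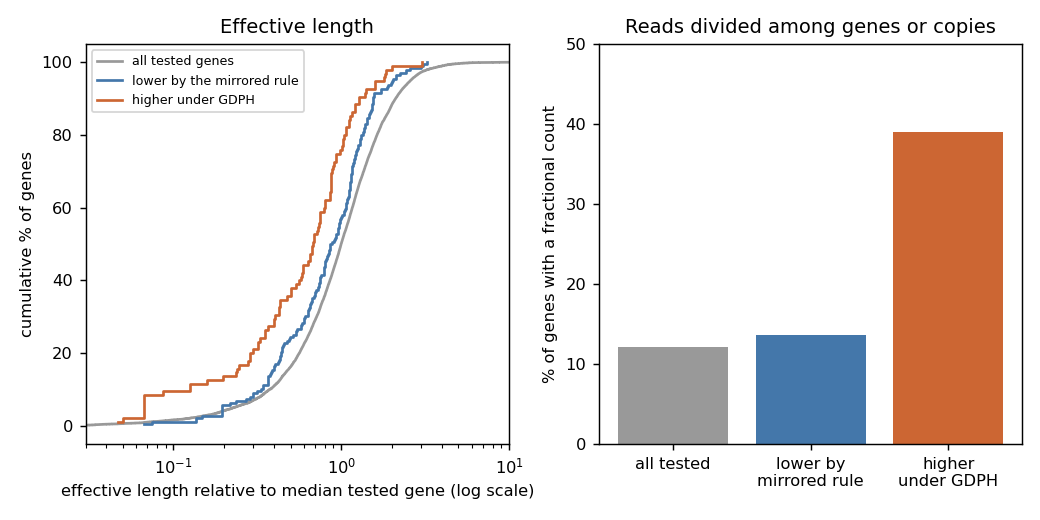
Left, cumulative percentage of genes by effective length relative to the median tested gene (log scale). Right, percentage of genes with a fractional count in at least 1 library, which is 38.9% for the 95 genes higher under GDPH (orange), 13.6% for the 176 genes lower by the mirrored rule (blue) and 12.2% for all tested genes (grey).

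The identifiers were spread over 18 numbered chromosomes and unplaced sequence. Chromosome 14 held 13 of the 95 genes (13.7%, against 6.64% of all tested genes), chromosome 5 held 11 (11.6%, against 5.60%) and chromosome 12 held 10 (10.5%, against 4.62%). Chromosome 19 held 0 of the 95 genes and 4.02% of the tested ones, although 3 genes on it met the rule apart from its upper limit on level.

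On chromosome 5, several of the genes carry serial numbers next to Vitvi05g01946, a gene too abundant for the rule. Vitvi05g01946 was at 2790, 2274 and 2309 CPM under urea and at 17970, 15736 and 10697 CPM under GDPH, a ratio of 6.02, with whole counts in every library. Its neighbour Vitvi05g01947 was at 28.1, 20.5 and 25.1 CPM under urea and at 476, 312 and 137 CPM under GDPH, a ratio of 12.6. In both, GDPH replicate 1 was the highest plot and replicate 3 the lowest GDPH plot. Vitvi05g01945 was at 4.38, 4.18 and 2.83 CPM under urea and at 30.4, 74.4 and 77.5 CPM under GDPH, with replicate 1 the lowest GDPH plot, the reverse of its neighbour. Vitvi05g01947 stood at 0.902 to 1.09% of the CPM of Vitvi05g01946 in the urea plots and at 1.28 to 2.65% in the GDPH plots. Vitvi05g01945 stood at 0.122 to 0.184% and at 0.169 to 0.725%.

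Further along the same numbers, Vitvi05g01948 was at 1.89, 2.31 and 1.79 CPM under urea and at 15.8, 7.76 and 13.2 CPM under GDPH. Vitvi05g01953 was at 0.912, 0.873 and 0.924 CPM under urea, nearly equal in the 3 plots, and at 13.0, 8.85 and 5.24 CPM under GDPH. All 4 of the selected neighbours held fractional counts. The part that reads shared with Vitvi05g01946 or with other copies play in these values was not tested. Genes numbered between them did not all separate the treatments. Vitvi05g01952, which held whole counts, was at 9.06, 11.1 and 14.7 CPM under urea and at 11.99, 11.5 and 13.5 CPM under GDPH, where the groups overlap. Vitvi05g01949 was at 0.547, 2.31 and 1.96 CPM under urea and at 1.48, 3.03 and 1.86 CPM under GDPH, which also overlap. Vitvi05g01950 did separate them at a level too low for the rule, with 0.243, 0.436 and 0.115 CPM under urea and 1.21, 1.08 and 1.75 CPM under GDPH, a ratio of 5.08.

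A second group of neighbouring numbers lies on chromosome 12, where the urea plots disagreed. Of the 95 genes, 9 had an effective length under 0.1 of the median tested gene, against 1.64% of all tested genes, and 8 of these 9 are on chromosome 12. They are Vitvi12g02456, Vitvi12g02457, Vitvi12g02459, Vitvi12g02465 to Vitvi12g02468 and Vitvi12g04203, and 5 of the 8 held fractional counts. Their summed level was 20.7, 73.4 and 6.93 CPM in urea replicates 1 to 3 and 129, 136 and 103 CPM in the GDPH replicates. Urea replicate 2 was the highest urea plot for all 9 short genes, and over all tested short genes it was the highest for 35.7%. Vitvi12g02459 was at 1.95, 10.1 and 0 CPM under urea and at 12.5, 17.4 and 11.7 CPM under GDPH. Vitvi12g02466 was at 2.19, 10.3 and 0.0577 CPM under urea and at 16.6, 17.4 and 12.1 CPM under GDPH. In both, urea replicate 3 was near 0 and urea replicate 2 came close to the GDPH plots.

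The size of the difference in these short genes depended on single urea plots. Without urea replicate 2, the ratio moved from 3.44 to 14.2 for Vitvi12g02459, from 3.66 to 13.7 for Vitvi12g02466 and from 4.85 to 16.5 for Vitvi12g02465. It also moved from 4.42 to 7.28 for Vitvi12g02467, from 3.47 to 7.41 for Vitvi12g02457 and from 3.18 to 7.57 for Vitvi12g02456. Without urea replicate 3 the ratio was below 3 for Vitvi12g02459 (2.30), Vitvi12g02456 (2.32), Vitvi12g02457 (2.43) and Vitvi12g02466 (2.45). It was 3.29 for Vitvi12g02465, 3.40 for Vitvi12g02467 and 3.24 for Vitvi12g02468. Without urea replicate 1 it was below 3 for Vitvi12g02456 (2.63), Vitvi12g02459 (2.74) and Vitvi12g02466 (2.95). Vitvi12g02456 had the most counts of the 8, at 6.99, 25.9 and 3.06 CPM under urea and at 36.9, 42.9 and 34.4 CPM under GDPH. Vitvi12g02457 had the narrowest gap of all 95 genes, with its lowest GDPH plot 1.002 times its highest urea plot. It was at 1.52, 3.99 and 0.289 CPM under urea and at 6.53, 9.59 and 3.997 CPM under GDPH. Vitvi12g02468 was steadier, at 1.89, 3.18 and 1.27 CPM under urea and at 10.4, 7.02 and 7.21 CPM under GDPH. Of the 8 genes on chromosome 12, edgeR called 2, Vitvi12g02467 and Vitvi12g02468, and with the replicate block also Vitvi12g02457, which makes 3. Vitvi12g02467 lost its call in 5 of 15 alternatives, which were no filter and the omission of urea replicate 1 or of any one GDPH replicate.

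**Figure D5:**
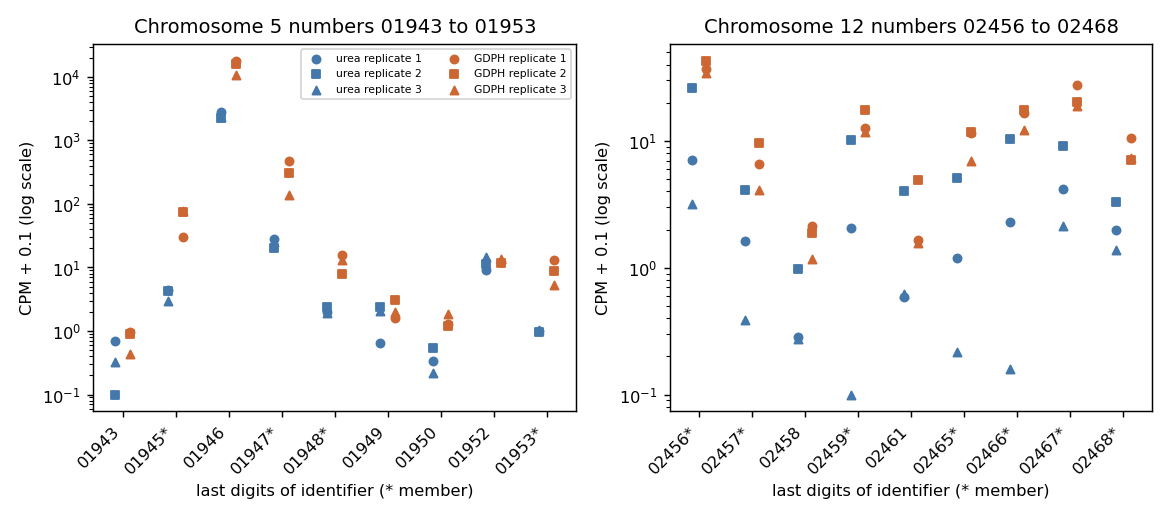
CPM with 0.1 added (log scale) in each library for tested genes with neighbouring serial numbers on chromosome 5 (left) and chromosome 12 (right). An asterisk marks the selected genes, and Vitvi05g01946 stands far above its neighbours. For each plotted gene on chromosome 12 urea replicate 2 (blue squares) lies above the other urea plots.

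Urea replicate 2 also stood out in a pair of genes on chromosome 8, noticed after their values were seen. Vitvi08g01540 was at 4.20, 19.3 and 2.83 CPM under urea and at 125, 53.8 and 79.3 CPM under GDPH. Vitvi08g04335 was at 0.851, 4.55 and 0.577 CPM under urea and at 25.6, 12.6 and 19.4 CPM under GDPH. The 2 genes had effective lengths of 0.907 and 0.891, both held fractional counts, and their ratio to each other stayed between 4.09 and 4.93 in all 6 libraries. Both were called by edgeR, and neither was with the replicate block. Across the 95 genes, 19 had a urea plot at least 2 times the next urea plot, which was replicate 2 for 10 genes and replicate 1 for 9. Those 10 were this pair, Vitvi08g01300 and the short genes on chromosome 12 apart from Vitvi12g02468.

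On chromosome 1, Vitvi01g00619 and Vitvi01g00620 carry adjoining numbers and the same effective length, 0.934. Vitvi01g00619 was at 8.15, 4.43 and 4.33 CPM under urea and at 31.0, 15.8 and 14.8 CPM under GDPH. Vitvi01g00620 was at 5.05, 2.93 and 2.08 CPM under urea and at 21.6, 10.4 and 7.60 CPM under GDPH. Both were highest in the plots numbered 1, and both held fractional counts. The next number, Vitvi01g00621, was at 3.83, 3.80 and 5.43 CPM under urea and at 6.87, 7.02 and 7.09 CPM under GDPH, a ratio of 1.61.

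The threshold cut through a continuous range. Just inside it, Vitvi07g00301 had a ratio of 3.02, with 188, 164 and 231 CPM under urea and 683, 563 and 512 CPM under GDPH. Vitvi05g01860 had a ratio of 3.08, Vitvi09g00837 of 3.09, Vitvi02g04092 of 3.11 and Vitvi13g01614 of 3.12. The ratio of Vitvi05g01860 became 4.82 without urea replicate 1. Just outside it, Vitvi09g00558 had a ratio of 2.99, with 15.3, 16.9 and 10.7 CPM under urea and 45.3, 44.2 and 38.9 CPM under GDPH. The next genes outside were Vitvi18g00172 at 2.93, Vitvi02g01230 at 2.89, and Vitvi04g00512 and Vitvi04g00070, both at 2.87. With a 2-fold threshold the rule took in 223 genes, and with a 4-fold threshold 51.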

How the data were processed

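Per the labels' protocols, berry RNA went into a stranded mRNA library kit. The submitters' processing notes list STAR 2.7.9a and RSEM 1.3.3. For the genome build, annotation and read filters, the sources used here give nothing. Each expected count per gene was estimated by the authors, who deposited it without normalization. The authors also deposited TPM, a level per transcript length that sums to a constant in each library. Counts were rounded, and filterByExpr in edgeR (treatment as group, counts of 10 per library and 15 in total) left 16030 genes, which were scaled by TMM (factors 0.932 to 1.06). All genes were tested with the robust quasi-likelihood fit of edgeR, adjusted by Benjamini-Hochberg. The common biological coefficient of variation was 0.217. SDs on the log2 scale used log2(CPM + 0.5). Effective length was the summed count over the summed TPM, set to 1 for the median tested gene. It reflects the annotation and the fragment length and is relative only. A count further than 1e-09 from a whole number was taken as fractional.

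The genes and the rules for describing them were chosen with earlier results of these data known. Genes named are the 10 with the highest ratio, the 10 with the most CPM under GDPH, the 5 on each side of the threshold, those with serial numbers at most 2 apart, and the 5 with the largest and the 5 with the smallest spread among GDPH plots. Others were named after their values were seen, as were the window of neighbouring numbers, the length limit of 0.1 and the mirrored genes' features. No library of a treatment repeated another (chi-square per degree of freedom at least 14.5). That the replicates are separate plots rests on the labels.

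Libraries with the same replicate number deviated together from their treatment means, with correlations across genes of 0.345, 0.468 and 0.241 for numbers 1, 2 and 3 and at most -0.0418 for other pairs. Deviations from a treatment mean cancel out across its libraries, so the negative values follow in part from the positive ones. The labels describe a block layout without saying that the number is the block, so the pairing rests on this check, and the fit with the number as a block stands beside the main one. Alternatives covered scaling, unit, filter, thresholds, tool and each library left out. R 4.3.3, edgeR 4.0.16, limma 3.58.1 and DESeq2 1.42.0 were used. The fit was also run on simulated data, but the outcome is not reported here and lends no weight to these results.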

Additional observations from a re-analysis of the deposited data

How the results depend on the processing

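The number of genes meeting the rule, 95, stayed within 1.5 times that value under RLE factors (96), library totals (74), TPM (64), no filter (96), a stricter filter at 5 CPM in at least 3 libraries (75), a level of at least 2 or 10 CPM (125 and 70), overlap allowed (113) and no upper limit (102), and with 1 library left out it ran from 77 to 133. A 2-fold threshold gave 223 genes higher and 520 lower, and a 4-fold threshold 51 and 81, by construction. Leaving out genes with fractional counts, chosen after seeing the data, gave 59 genes higher, 58 of them among the 95, and 159 lower. The mirrored number of 176 rose to 340 on TPM and to 279 with a level of at least 2 CPM, and ran from 134 to 263 with 1 library left out. The difference in the share of the library held by the 95 genes was 0.609 percentage points of counts, 0.832 of TPM, 0.536 without the gene with most counts, and 0.483 to 0.685 with 1 library left out.

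Of the 95 genes, 76 passed the edgeR test, 87 passed with DESeq2, 77 with limma-voom, 81 and 77 with limma on log2(TPM + 1) and log2(TPM + 0.1), 83 with the replicate block, 73 of the 76 among them, and 55 to 69 with 1 library left out, the fewest without urea replicate 2. Over all tested genes the share called higher was 6.45% with edgeR and 9.81% with the replicate block. The shares under the other settings are not given here. All these counts come from the contrast that chose the genes, so they are no independent evidence. For the 38 genes named by rule, 563 alternative values gave no change of sign (0), 37 lost a call and 26 gained one. The sign could hardly change, because the rule already required every GDPH value to lie above every urea value. Genes with few counts are limited by depth. A count of 10 in a library of this size is under 1 CPM, and 7 of the 95 genes averaged less than that under urea.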

Other observations

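Above the level limit of 1000 CPM, 7 further genes met the other conditions. Vitvi05g01946 had the highest ratio, 6.02, and was described with its neighbours. Vitvi19g00581 was at 5001, 4079 and 4376 CPM under urea and at 18071, 21907 and 17146 CPM under GDPH, a ratio of 4.25. Vitvi19g02038 was at 663, 539 and 513 CPM under urea and at 2789, 3581 and 2288 CPM under GDPH, a ratio of 5.05. Vitvi11g01427 was at 405, 399.5 and 303 CPM under urea and at 2307, 1470 and 1562 CPM under GDPH, a ratio of 4.82. Vitvi19g02040, Vitvi08g00138 and Vitvi05g01044 had ratios of 3.53, 3.48 and 3.44. All 7 held whole counts in every library, unlike 37 of the 95 genes, and their effective lengths ran from 0.318 to 0.876 of the median tested gene.

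On chromosome 12, 26 tested genes had an effective length under 0.1 of the median tested gene. Of these, 8 are among the 95 and so higher under GDPH by the rule. Of the other 18, 15 had a higher mean under GDPH than under urea, against 49.3% of all tested genes. Urea replicate 2 was the highest urea plot for 11 of these 18, against 35.7% of all tested short genes and 27.1% of all tested genes. Over the 263 short tested genes of all chromosomes the median ratio was 1.09. Vitvi12g02458, numbered between selected genes, was at 0.182, 0.873 and 0.173 CPM under urea and at 2.02, 1.77 and 1.07 CPM under GDPH, a ratio of 3.96 with no overlap, at a level too low for the rule. Vitvi12g02461, numbered within the group described above, was at 0.486, 3.93 and 0.519 CPM under urea and at 1.55, 4.85 and 1.46 CPM under GDPH, so that both plots numbered 2 stood above the others. Vitvi12g02470 was at 4.68, 4.49 and 11.4 CPM under urea and at 9.83, 5.14 and 8.44 CPM under GDPH, where the groups overlap and urea replicate 3 was highest.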
